A study of Rattus norvegicus with 6 samples.

Results

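The renal cortex of untreated rats was described from 3 of the 6 samples of this series, the rats that were given water. They were male Sprague-Dawley (Crl:CD(SD)) rats, bought at 5 weeks of age and given water for 4 weeks on a basal diet, with no other agent and no altered allele named. Total RNA from the cortex of each rat (0.2 ug) was labelled with the dye Cy3 and hybridised to 1 single-colour Agilent array, so each value below is from 1 animal. The other 3 rats, which received ethylenediamine dihydrochloride, were not used. Genes were kept when a probe named by its RefSeq accession was well above background, by the scanner software's own flag, on all 3 arrays. This left 11452 of 15638 genes with a named probe (73.2%), while 805 passed on some arrays and 3381 on none.

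The kidney filters blood in the glomerulus, where podocytes hold the filter together, and then recovers nearly all of what was filtered along the nephron. The proximal tubule takes back glucose, amino acids, phosphate, bicarbonate and small proteins, makes glucose and ammonia, and secretes organic acids and drugs, and it draws its energy from mitochondrial oxidation. The thick ascending limb, distal convoluted tubule, connecting tubule and collecting duct then set the final balance of salt, potassium, calcium, acid and water. The cortex holds glomeruli, the convoluted tubules and the cortical parts of the thick limb and collecting duct, while the urea-concentrating segments lie deeper, in the inner medulla.

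Levels are given as the log2 signal of a gene's brightest probe minus the 75th percentile of that array's signals, so that 1 unit is a doubling and 0 is the 75th percentile itself. Over the genes above background the median level was 0.41, the top 10% (1145 genes) began at 4.25, and the range from first to last was 14.2. The 75th percentiles before scaling were 907, 856 and 938 in linear signal, the lowest signals above background lay at -5.51, -5.25 and -5.19, and no spot was saturated. Only 3 arrays limit the precision of every value. The arrays of all 3 rats shared 1 slide per the file headers. Across genes, which are not independent replicates, the arrays correlated with each other at Pearson's r of 0.993 to 0.995, and the median SD between rats was 0.093.

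A rank here orders probe signals. Probes of the same gene can differ in signal: among the 5862 genes with 2 or more probes above background, the brightest and dimmest probe of the same gene differed by a median of 2.08 (4.23-fold), with quartiles of 0.99 and 3.57. In 3031 of these genes (51.7%) they differed by over 4-fold. The brightest and the next probe correlated across genes at Pearson's r of 0.819 and Spearman's rho of 0.791. Ranks are therefore given as places in the order of probe signals, and gaps between 2 genes are not read as transcript ratios. In whole cortex, fewer cells of a type and less RNA per cell cannot be told apart either.

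The promoters of a few genes on which the description turns are shown first, because the brightest genes and the proximal tubule genes were searched for short letter patterns. Each is the stretch of 250 bases before the annotated start in RefSeq's GRCr8 assembly, written 5′ to 3′ on the gene's own strand. In the first 4, which belong to genes of the proximal tubule lists, capitals mark GTTAAT or its reverse complement, the core of the motif bound by the hepatocyte nuclear factor HNF1, which is known for switching on proximal tubule genes. In the last 2, which belong to genes among the 100 brightest, capitals mark the TATA box letters TATAAA. Only the pattern named for a promoter is marked, so TATAAA in Slc34a1 and GTTAAT in G6pc1 stay in small letters. The phosphate transporter gene Slc34a1 lies on chr17:9238984-9239233 (minus strand), the gluconeogenic enzyme gene Pck1 on chr3:182348322-182348571 (plus), the organic anion transporter gene Slc22a8 on chr1:214927034-214927283 (plus), the brush border peptidase gene Anpep on chr1:143195102-143195351 (minus), the metallothionein gene Mt1 on chr19:10832976-10833225 (minus) and the glucose-6-phosphatase gene G6pc1 on chr10:86807409-86807658 (plus).
Slc34a1: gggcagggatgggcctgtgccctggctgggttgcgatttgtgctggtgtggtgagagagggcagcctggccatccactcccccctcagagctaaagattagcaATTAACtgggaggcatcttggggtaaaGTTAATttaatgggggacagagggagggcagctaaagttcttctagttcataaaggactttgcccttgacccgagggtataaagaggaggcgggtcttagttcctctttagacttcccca
Pck1: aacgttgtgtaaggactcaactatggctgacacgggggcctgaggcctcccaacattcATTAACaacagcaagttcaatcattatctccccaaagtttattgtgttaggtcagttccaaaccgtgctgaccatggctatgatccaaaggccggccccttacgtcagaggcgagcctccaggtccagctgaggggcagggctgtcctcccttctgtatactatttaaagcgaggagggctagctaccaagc
Slc22a8: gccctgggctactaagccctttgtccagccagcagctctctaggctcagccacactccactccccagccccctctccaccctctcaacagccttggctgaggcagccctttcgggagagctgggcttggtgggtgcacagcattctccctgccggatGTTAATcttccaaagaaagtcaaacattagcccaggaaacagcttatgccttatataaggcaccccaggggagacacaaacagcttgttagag
Anpep: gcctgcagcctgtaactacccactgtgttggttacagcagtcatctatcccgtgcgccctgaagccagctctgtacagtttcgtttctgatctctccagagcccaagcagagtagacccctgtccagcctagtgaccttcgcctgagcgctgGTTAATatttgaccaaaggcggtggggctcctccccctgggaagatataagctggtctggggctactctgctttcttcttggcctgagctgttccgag
Mt1: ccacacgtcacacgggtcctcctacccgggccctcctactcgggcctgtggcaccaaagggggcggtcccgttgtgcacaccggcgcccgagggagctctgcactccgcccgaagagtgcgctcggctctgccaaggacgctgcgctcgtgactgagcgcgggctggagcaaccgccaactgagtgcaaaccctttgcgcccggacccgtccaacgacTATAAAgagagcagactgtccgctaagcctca
G6pc1: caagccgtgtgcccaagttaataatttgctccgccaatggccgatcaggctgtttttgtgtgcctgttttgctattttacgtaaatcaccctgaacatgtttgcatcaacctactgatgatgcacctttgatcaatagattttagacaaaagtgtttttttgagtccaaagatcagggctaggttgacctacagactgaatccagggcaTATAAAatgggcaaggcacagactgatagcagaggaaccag

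TATAAA on either strand was found in 43 of 256 promoters of the 300 brightest genes (16.8%, exact binomial 95% interval 12.4% to 22.0%). Among all genes above background it was found in 725 of 9365 promoters (7.74%), and among all 27457 promoters of the RefSeq table in 13.1%. Counted on the sense strand only, starting between positions -45 and -20 from the start, it was found in 7.42% of the 300 brightest, 1.93% of all above background and 1.81% of the table. In Mt1 these letters began at position -32 and in G6pc1 at -41. The brightest genes with such a match included both metallothioneins (Mt1, Mt2A), the cyclophilin Ppia, the ribosomal protein Rplp0 and the globin Hba-a1.

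GTTAAT on either strand was found in 11 of 48 promoters of the proximal tubule lists (22.9%, interval 12.0% to 37.3%) and in 4 of 47 of the lists from the thick limb to the collecting duct (8.51%, interval 2.37% to 20.4%). These intervals treat the listed genes as independent random draws, which chosen lists are not. All genes above background had it in 415 of 9365 (4.43%) and the whole table in 6.46%. In Slc34a1 it was found at positions -147 and -120, in Slc22a8 at -93, and in Anpep at -98. The full HNF1 motif, of which that core is a part, was found in 0 of the 9365 promoters of genes above background (upper 95% limit 0.0394%) and in 1 of 27457. A match describes letters in this window and is neither a binding site nor a cause.

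The 30 brightest genes, of which 18 are in one of the gene lists, held 10.04% to 10.36% of the summed signal of all genes above background on each array, and the top 10% of genes held 73.8% to 74.0%. First came Miox, the inositol oxygenase that begins inositol breakdown in the proximal tubule, at 9.06, 9.03 and 8.99 in rats 1, 2 and 3. The same order of rats is used for every set of values below. Ftl1, the ferritin light chain, followed at 9.08, 9.03 and 8.95, and Fbp1, the fructose-1,6-bisphosphatase of gluconeogenesis, at 8.98, 9.01 and 8.94. These 3 genes overlapped between rats, and so did 25 of the 29 neighbouring pairs in the list, so that the order within it is loose.

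Transport and reabsorption were represented among the 30 by Slc13a3, the basolateral sodium-dicarboxylate transporter (8.58, 8.52, 8.44), by Slc34a1, the main phosphate transporter of the brush border (8.29, 8.19, 8.18), and by Atp1b1, the beta subunit of the sodium pump (8.15, 8.24, 8.19). The lysosomal proteases Ctsb (8.83, 8.70, 8.81) and Ctsa (8.50, 8.48, 8.49) were there too. The metabolic genes included Cyp4a2, a fatty acid hydroxylase (8.64, 8.61, 8.60), and Cyp2c23, an arachidonic acid epoxygenase of rat kidney (8.36, 8.35, 8.29). Of the mitochondrial genes, Atp5f1a, the alpha subunit of ATP synthase, lay at 8.84, 8.82 and 8.88, and Cox6a1, a cytochrome oxidase subunit, at 8.60, 8.64 and 8.59.

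Metal-binding and antioxidant genes made up another set: the ferritin heavy chain Fth1 (8.70, 8.61, 8.61), Mt1 (8.84, 8.73, 8.61), Mt2A (8.27, 8.19, 8.14) and Gpx3, the glutathione peroxidase that the proximal tubule releases into plasma (8.24, 8.21, 8.09). Over the whole metal list, rat 1 was highest for 8 of 22 genes (36.4%, beside 34.2% of all genes above background). Rat 3 was highest for 9 (40.9%, beside 32.3%). The rest included the ribosomal genes Rpl41, Rplp1 and Rplp0, the ubiquitin gene Ubb, Ppia and the actin Actg1, the mitochondrial genes Atp5me, Chchd10 and Chchd2l3, the androgen-regulated kidney gene Kap, the globin Hba-a1 and the adhesion molecule gene Ceacam9. Several of these have near-identical relatives (Cyp4a2, the ferritins, the globins, the ribosomal genes and Ubb), and how far a relative adds to a probe's signal was not tested.

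**Figure D1:**
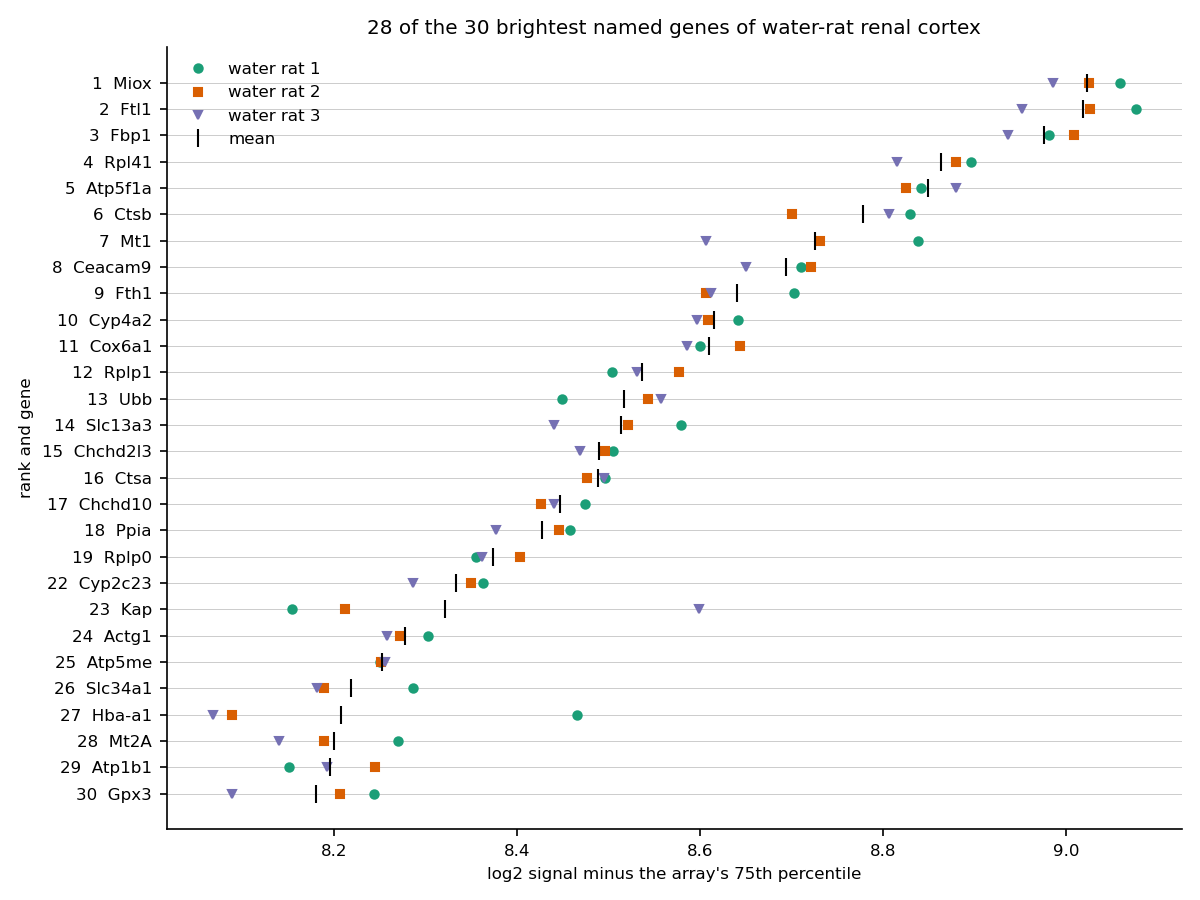
Level of 28 of the 30 brightest named genes on each of the 3 water-rat arrays (symbols, log2 signal minus the array's 75th percentile) with the mean as a tick, in rank order. The levels run from 9.02 for Miox to 8.18 for Gpx3, and most neighbours overlap; Kap stands higher in rat 3 and Hba-a1 in rat 1.

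Other probes of the same genes told apart the firm places from the loose ones. Of the 30, 20 had a second probe above background, and in 8 of them the probes spanned over 4-fold. Slc34a1 was bright on both of its probes, at means of 8.22 and 7.04. Rplp0 had probes at 8.37, 8.10 and 2.70, and Ceacam9 had a second probe that was not well above background on any array, so its place rests on 1 probe. With the median over a gene's probes in place of the brightest, 19 of the 30 stayed in the list, and Fbp1, Cyp4a2 and Slc34a1 were among the 11 that left it. A gene with only 1 probe above background keeps its level under this setting. All 11 that left were among the 20 with a second probe.

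By class, metabolic genes had the largest share in the top 10%. Of 379 metabolic list members on the array, 362 were above background and 203 of these (56.1%) were in the top 10%, beside 10% of all genes by construction. The nephron segment lists had 45 of 162 (27.8%) there and the transport lists 58 of 244 (23.8%). The lists of other cell types had 8 of 84 (9.52%). The median level was 4.73 in metabolism, 2.49 in the segment lists, 1.86 in transport and -0.28 in the other cell types, beside 0.41 for all genes. The metabolic class includes the cytosolic ribosome list, with all 28 of its genes in the top 10%. Lists were chosen with earlier results of these data known, so the shares describe them and do not test whether a class is bright.

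Proximal tubule genes were bright as a group: 55 of 58 on the array were above background and 23 of the 55 (41.8%) were in the top 10%, with a median of 4.09. In the early proximal tubule list the count was 12 of 18, with medians of 5.31, 5.39 and 5.41 in the 3 rats. Below Slc34a1 came Pck1, the first committed enzyme of gluconeogenesis (7.67, 7.84, 7.87), and Slc5a2, the high-capacity glucose transporter of the early segment (7.53, 7.60, 7.55). The endocytic receptor megalin, Lrp2, lay at 6.59, 6.55 and 6.57. Its partner cubilin, Cubn, lay at 5.95, 5.68 and 5.92. Rat 1 was lowest for Pck1, and rat 2 was lowest for Cubn. For Lrp2, rat 2 was lowest on the brightest probe but highest on the second probe, so no order of rats is given for it.

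The middle segment was marked by the organic anion transporters Slc22a6 (8.14 in all 3 rats) and Slc22a8 (7.68, 7.60, 7.64), which take up drugs and waste anions from blood, and by the fatty acid transport protein Slc27a2 (7.08, 7.03, 7.07). In 5 of 10 members of that list the level was in the top 10%. Late proximal genes were spread more widely, with 4 of 14 in the top 10% and a median of 3.02. Slc3a1, the heavy chain of the cystine transporter, stood at 7.67, 7.69 and 7.72, and its partner Slc7a9 at 5.78, 5.64 and 5.52. Slc5a1, the low-capacity glucose transporter of the late segment, lay at -1.46, -1.73 and -1.70, and its second probe at a mean of -2.33. Slc7a13, an aspartate and glutamate carrier of the late segment, was higher in rat 3 (2.87, 2.99, 3.90), and its second probe placed the rats in the same way (-0.01, 0.05, 1.11).

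Brush border enzymes had a median of 3.84 with 3 of 14 in the top 10%, a count that was 7 with the median over a gene's probes. It was 8 with no filter on background, where more genes are ranked and the top 10% holds more of them. The peptidase Dpp4 (5.75, 5.55, 5.74), the dipeptidase Cndp2 (5.52, 5.37, 5.47) and the glutathione-cleaving enzyme Ggt1 (5.39, 5.30, 5.31) led them. Anpep was at 3.81, 4.20 and 3.63, so rat 2 was highest there.

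Beyond the proximal tubule, 60 of 65 listed genes from the thick limb to the collecting duct were above background and 19 of the 60 (31.7%) were in the top 10%, with a median of 2.86. The thick ascending limb held 9 of 16 there and a median of 4.59. Umod, the gene of uromodulin, the most abundant urinary protein, was at 7.63, 8.15 and 8.12. Slc12a1, the furosemide-sensitive salt transporter, was at 4.11, 4.59 and 4.72. Both genes were lowest in rat 1, and for Umod a second probe placed the rats in the same way (7.61, 8.14, 8.12).

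In the distal convoluted tubule list, Fxyd2, a regulator of the sodium pump, was at 7.36, 7.35 and 7.25. Whole cortex does not show which segment gave that signal. Slc12a3, the thiazide-sensitive salt transporter, was at 4.17, 4.52 and 4.37. Pvalb, the calcium buffer often used to mark this segment, was not above background on any array. Klk1, the kallikrein of the connecting tubule, was bright in every rat (7.14, 7.33, 7.22), and the calcium buffer Calb1 was at 2.58, 2.75 and 2.79.

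Principal cells of the collecting duct were seen through Aqp2, the vasopressin-regulated water channel (6.95, 7.21, 6.88), Hsd11b2, which shields the mineralocorticoid receptor from glucocorticoid (5.50, 5.83, 5.55), and Aqp3 (5.18, 4.86, 4.71). The sodium channel subunit Scnn1a lay at 0.26, 0.45 and 0.25, and Kcnj1, the potassium channel ROMK, at 0.76, 0.99 and 1.08. Among the acid-base handling intercalated cells, the proton pump subunit Atp6v1g3 (6.33, 6.57, 6.51) and the chloride-bicarbonate exchanger pendrin, Slc26a4 (5.60, 6.02, 5.84), were bright in every rat. The exchanger Slc4a1, shared with red cells, was at 2.74, 2.95 and 2.74.

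The glomerular lists were dimmer than the proximal tubule lists and those from the thick limb to the collecting duct. All 30 listed genes were above background (100%, beside 73.2% of all genes), and 2 (6.67%, beside 10%) were in the top 10%. The median was 0.07, beside 0.41 for all genes, while the podocyte list alone had a median of 0.60. Podxl, the sialoprotein of the podocyte surface, was at 4.29, 4.36 and 4.61, and the slit diaphragm gene Nphs1 (nephrin) at 0.93, 1.30 and 1.15. Both were lowest in rat 1.

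The label, renal cortex, was checked against genes of other places. Of the inner medulla list, 11 of 12 members (91.7%) were above background, beside 73.2% of all genes, and 1 of the 11 (9.09%, beside 10%) was in the top 10%, namely Aqp3, which the cortical collecting duct also makes. The urea transporter Slc14a2 lay at -2.68, -3.05 and -3.03. The adrenal list had 3 of 9 genes above background, the highest at a mean of 0.74. Of its steroid-making enzymes, Cyp11b1, Cyp11b2 and Cyp11a1 were not above background on any array, while Hsd3b1 (mean -1.33) and Cyp17a1 (mean -2.59) were above it on all 3. The liver genes Cps1, of a urea cycle enzyme (no array), and Alb, of albumin (1 array), did not pass on all 3 either. The liver list had 9 of 16 members (56.2%) above background, with a median of -0.88, a highest mean of 2.35 and none in the top 10%. The adipose list had 4 of 8 and the muscle and neuron list 6 of 11 (54.5%). Lymphocyte genes had 9 of 13 above background (69.2%, close to the 73.2% of all genes) and a median of -3.88. Of the red blood cell list, 6 of 6 genes were above background and 1 (16.7%, beside 10%) was in the top 10%, with a median of -0.10. That 1 was the globin gene Hbb (7.44, 7.23, 7.22). The globin gene Hba-a1, which is outside the list, lay at 8.47, 8.09 and 8.07. Both globin genes were highest in rat 1. Of the endothelium list, 3 of 14 genes above background (21.4%, beside 10%) were in the top 10%, and the median was 0.64. These included the growth factor binding protein Igfbp3 (6.15, 6.22, 6.37) and the endothelial diaphragm gene Plvap (5.72, 5.69, 5.70). The myeloid list had 2 of 14 there (14.3%) and a median of 0.42, with the lysozyme Lyz2 at 6.12, 5.76 and 6.24. The fibroblast and matrix list had 1 of 10 there, the matrix protein Mgp (5.70, 5.60, 5.63), and a median of 2.21.

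**Figure D2:**
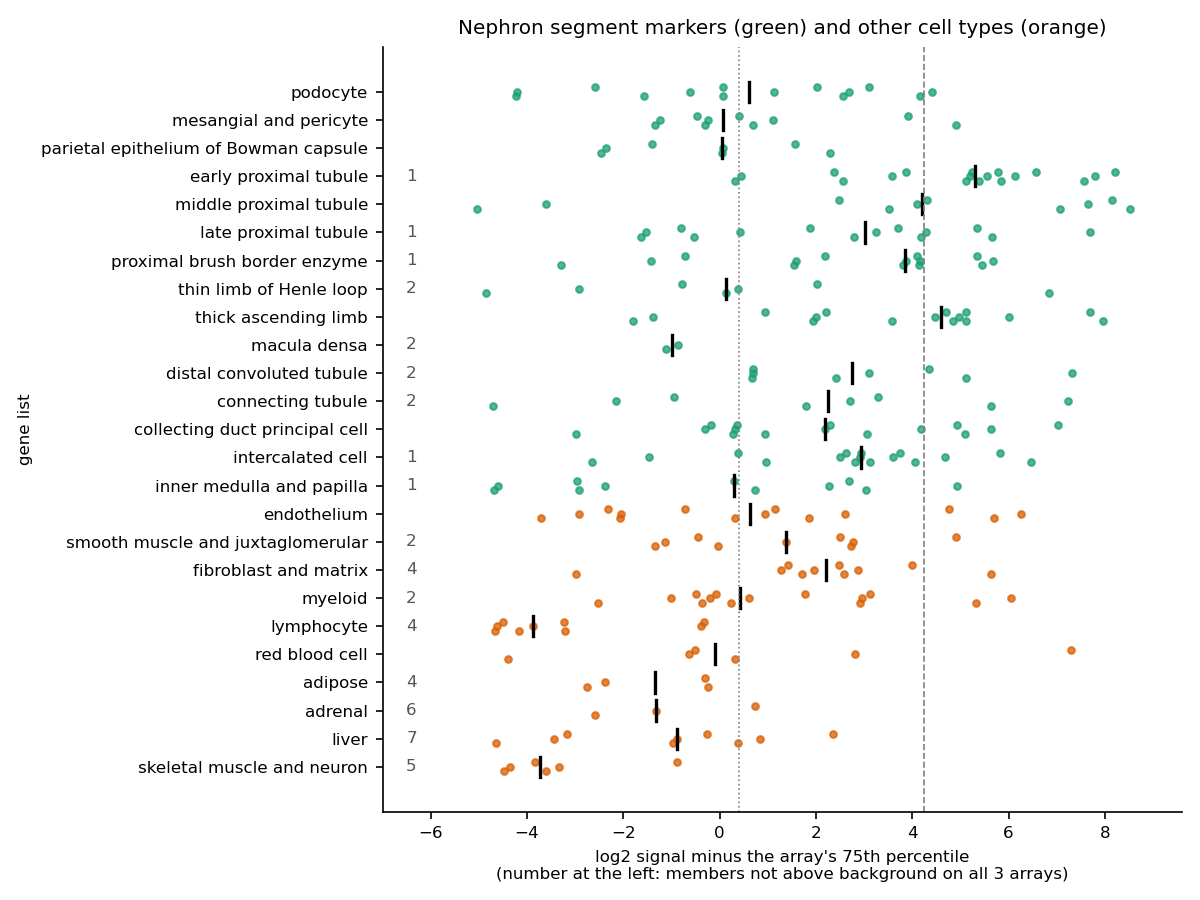
Mean level over 3 water rats (log2 signal minus the array's 75th percentile) of every member above background, for each nephron segment list (green) and other cell type (orange), with list medians as bars; the dotted line is the median of all genes (0.41), the dashed line the start of the top 10% (4.25), and a number at the left counts members not above background on all 3 arrays. Early proximal tubule (median 5.31) and thick ascending limb (4.59) lie furthest to the right, and lymphocyte genes (-3.88) furthest to the left.

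The levels of the segment lists differed a little between the 3 rats, a pattern that was noticed after the values were seen. Whether the pieces of cortex differed in their make-up was not tested. Of the 60 thick limb to collecting duct genes, 43 (71.7%) were lowest in rat 1, beside 35.2% of all genes above background. In rat 2, 36 of them (60.0%) were highest, beside 33.5% of all genes. Of 14 podocyte genes, 13 were lowest in rat 1. Of the 55 proximal tubule genes, 30 (54.5%) were highest in rat 1, beside 34.2% of all genes. In rat 2, 25 of them (45.5%) were lowest, beside 34.9% of all genes. The proximal lists were uneven: in the early list rat 1 was highest for 9 of 18 genes and lowest for 7. In the late list rats 1 and 3 were each highest for 7 of 14.

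The shifts were small. For the median gene of the thick limb list, rat 1 lay at -0.13 from the gene's mean over the rats, rat 2 at 0.11 and rat 3 at 0.04, while over all genes the 3 medians differed by 0.0056. Podocyte genes lay at -0.19, 0.10 and 0.10, and the 4 proximal lists together at 0.06, -0.04 and 0.01. Myeloid and matrix genes ran differently, with myeloid genes at 0.12, -0.24 and 0.15. Of the fibroblast and matrix genes, 9 of 10 were lowest in rat 2, beside 34.9% of all genes.

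The next probe of each gene gave like counts. Among the 38 genes from the thick limb to the collecting duct with a next probe, 26 were lowest in rat 1 on it (68.4%, beside 32.8% of all genes with a next probe). Of 9 such podocyte genes, 7 were. Among 29 proximal genes 14 were highest in rat 1 (48.3%, beside 34.9%). Both probes were read on the same array from the same RNA, so this repeats the measurement and not the animal. The array of rat 1 also had the most probes above background (40567, beside 38959 and 38935), whose part in the pattern was not tested.

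**Figure D3:**
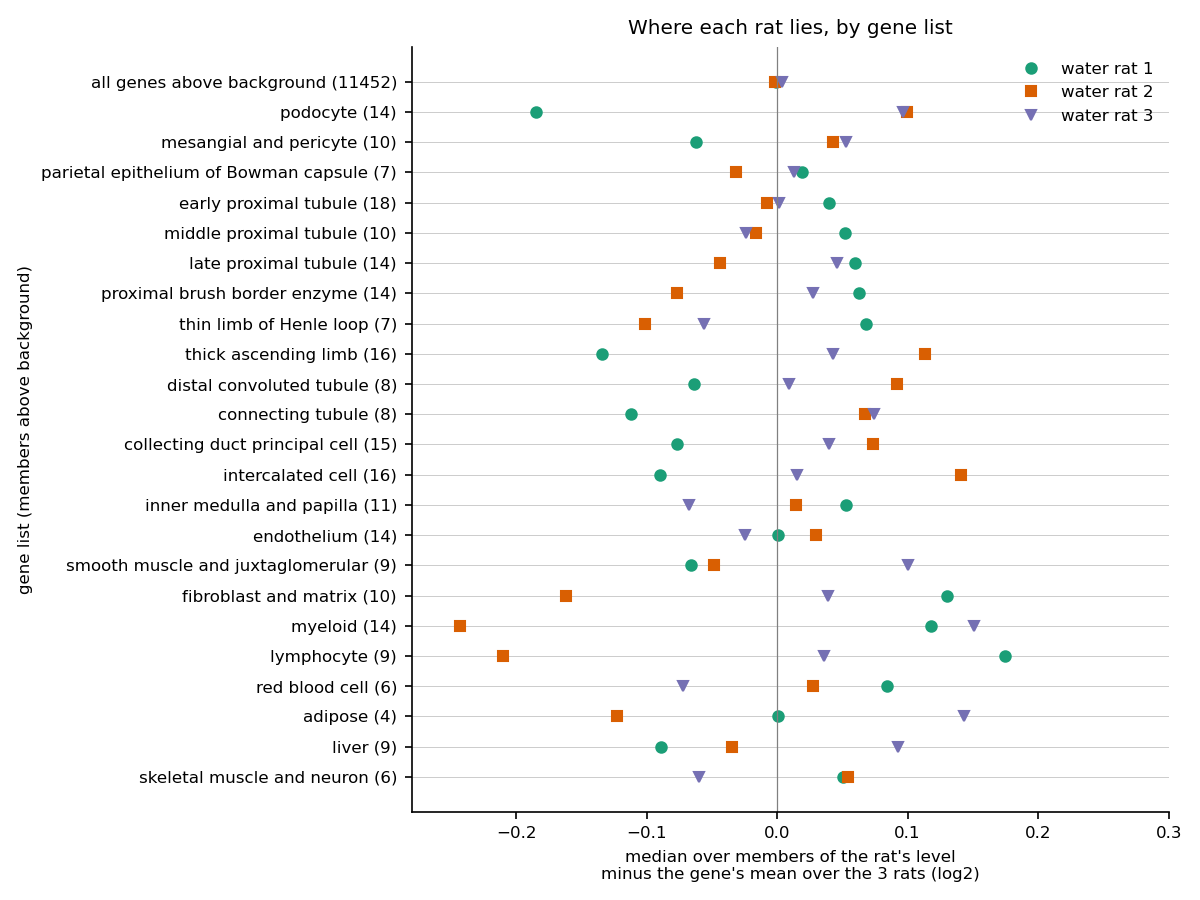
For each segment and cell type list, the median over members of a rat's level minus the gene's mean over the 3 rats (log2; symbols are rats, the number of members is in brackets). Rat 1 lies to the left for podocyte and for the thick ascending limb to intercalated cell lists and to the right for the proximal lists, while the medians over all genes lie within 0.0056 of each other.

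Among transport lists, protein reabsorption was the brightest, with 15 of 21 genes in the top 10% and a median of 5.78. After Ctsb it was led by the aspartic protease Napsa (8.03, 7.95, 7.95), B2m, whose protein is filtered and taken back up (7.53, 7.42, 7.50), and the lysosomal protease Ctsd (6.64, 6.84, 6.77). The list thus also holds lysosomal proteases and proteins that are taken up, and these RNA levels do not measure uptake. Amn, which anchors cubilin, was at 5.88, 5.79 and 5.66. Phosphate, sulfate and carboxylate transporters followed with 8 of 19. The scaffold Pdzk1 that holds Slc34a1 at the membrane was at 6.47, 6.42 and 6.45, and the sulfate carrier Slc26a1 at 6.21, 5.91 and 6.27. Slc34a2, the phosphate transporter of lung and gut, was not above background on any array.

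The list of the sodium pump and its partners had 3 of 10 genes in the top 10%, among them Atp1b1 and Fxyd2. Glucose carriers had 1 of 12 in the top 10%, Slc5a2. Its basolateral partner Slc2a2 was at 3.68, 3.91 and 4.04, and its 3 probes spanned 5.37. Amino acid carriers had 5 of 25, among them Slc3a1, its partner Slc7a9, and Cltrn (collectrin), which brings neutral amino acid carriers to the brush border (7.52, 7.31, 7.59). The light chain Slc7a8 was at 5.33, 5.10 and 5.28. Slc7a5, Slc38a4 and Slc36a2 were not above background on any array.

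Organic anion carriers had a median of 0.18, and 2 of 26, Slc22a6 and Slc22a8, were in the top 10%. That count was 6 with the median over a gene's probes and 5 with no filter on background, where the top 10% is of more genes. The urate carriers Slc22a12 (mean 4.22, SD 0.27) and Slc17a3 (4.42, 3.87, 4.03) were both highest in rat 1. Of the cation carriers, the proton-coupled exporter Slc47a1 lay at 4.17, 4.12 and 4.01 and Slc22a2 at 3.63, 3.52 and 3.42. Among water channels Aqp2, Aqp1 (7.01, 6.75, 6.79) and Aqp3 were in the top 10%. Bicarbonate, proton and ammonia genes had 7 of 24 there, with Slc4a4, the bicarbonate exit path of the proximal tubule, at a mean of 5.38. Claudins had 0 of 18, and the highest was Cldn2, the leaky pore of the proximal tubule (3.38, 3.21, 3.18).

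**Figure D4:**
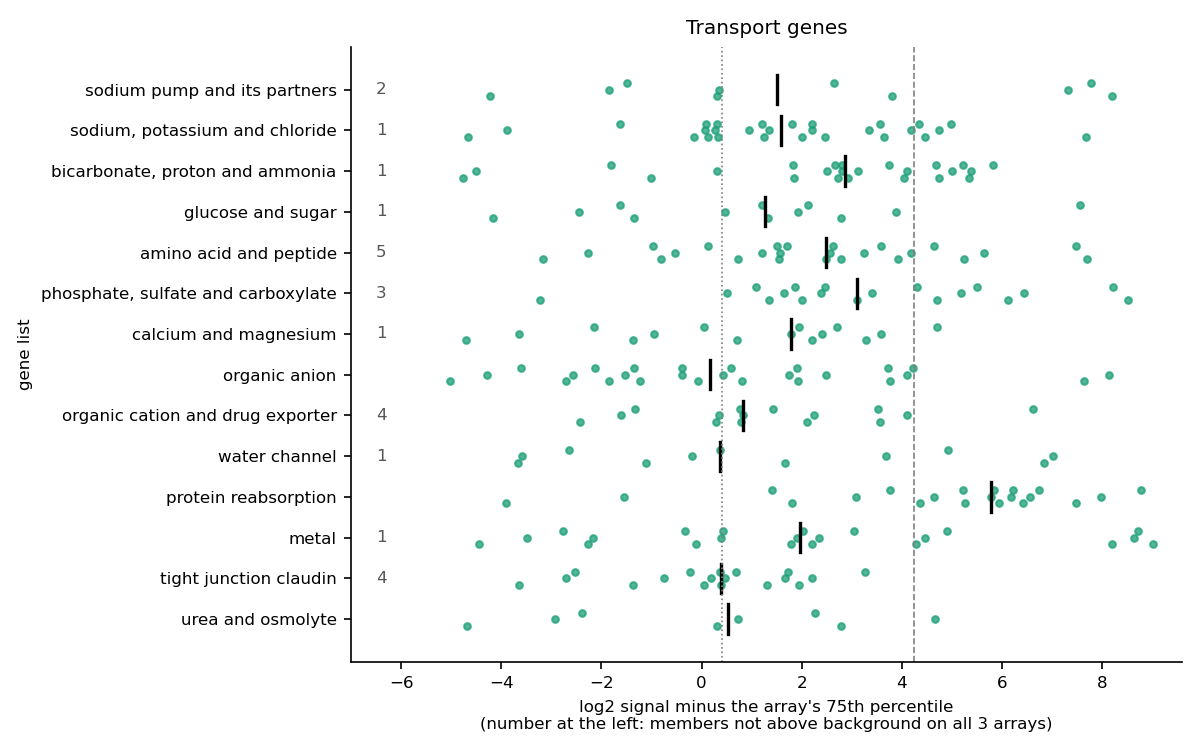
Mean level over 3 water rats (log2 signal minus the array's 75th percentile) of members of each transport list above background, with list medians as bars, the dotted line at the median of all genes (0.41) and the dashed line at the start of the top 10% (4.25). Protein reabsorption has the highest median (5.78) and no claudin reaches the dashed line.

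Metabolic lists divided into pathways that were bright nearly throughout and pathways that were not. All 28 ribosomal protein genes were in the top 10%, as were 37 of 42 respiratory chain and ATP synthase genes (median 6.32) and 18 of 22 tricarboxylic acid cycle genes (median 5.38). Respiratory chain genes also varied little between rats, with a median SD of 0.035 beside 0.093 for all genes and 0.056 for the top 10%. Cox8a was at 8.06 in all 3 rats, and Idh2, the mitochondrial isocitrate dehydrogenase, at 7.45, 7.48 and 7.51. The exception at the low end was Uqcrq, a complex III subunit with 1 probe, at 0.13, 0.14 and -0.23.

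Gluconeogenesis had 10 of 15 genes in the top 10% and a median of 6.30. Beside Fbp1 and Pck1 stood pyruvate carboxylase, Pc (7.69, 7.74, 7.59), and G6pc1, which releases free glucose (7.91, 7.56, 7.51). Rat 1 was highest for G6pc1 and lowest for Pck1. Fructose, inositol and polyol genes had 9 of 13, with the fructose kinase Khk at 7.82, 7.83 and 7.71 and the aldehyde reductase Akr1a1 at 6.76, 6.75 and 6.80. Glycolysis had 6 of 17 and a median of 2.16. Its highest members were Eno1 (7.75, 7.64, 7.59), Gapdh (7.43, 7.27, 7.35) and Pgk1 (7.41, 7.24, 7.35), enzymes of reversible steps. The hexokinase Hk1 was at a mean of 2.02, and Hk2 was above background on 2 arrays. Pkm was at 2.16 on its brightest probe, and its 3 probes spanned 7.31.

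Of the genes of mitochondrial fat oxidation, 14 of 25 were in the top 10%, led by the acyl-CoA synthetase Acsm2 (7.67, 7.91, 7.84) and the dehydrogenase Hadh (7.41, 7.32, 7.43). Peroxisomal genes had 12 of 24 there, led by the hydroxyacid oxidase Hao2 (7.52, 7.71, 7.70) and the sterol carrier Scp2 (7.23, 7.32, 7.17). In lipid and sterol synthesis 0 of 14 were there (1 with the median over a gene's probes), and the highest was Acly, which makes cytosolic acetyl-CoA (3.67, 3.70, 3.62). Of ketone genes, Oxct1, which lets tissue burn ketones, was at 6.40, 6.23 and 6.48.

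Nitrogen metabolism was bright in part. Ass1 (6.34, 6.18, 6.17) and Asl (5.41, 5.42, 5.50), by which the kidney makes arginine, were in the top 10%, and Gatm, the first enzyme of creatine synthesis, was at 5.07, 5.43 and 4.82. Cps1 and Otc, which open the urea cycle in liver, were above background on 0 arrays and 1 array. The ammonia-forming enzyme Glud1 (6.48, 6.40, 6.71) was in the top 10%, and the glutamine carrier Slc38a3 lay at -1.17, -1.34 and -0.39 on its only probe above background. Other amino acid breakdown had 16 of 28, led by Acy3, which releases amino acids from mercapturates (7.99, 7.73, 8.07). Phgdh, the first enzyme of serine synthesis, was at 7.01, 7.03 and 7.00, and Bhmt, which remethylates homocysteine, ranged more widely between rats (5.85, 6.19, 6.90).

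Among hormone and vitamin genes the vitamin D activating enzyme Cyp27b1 was at 0.32, 0.63 and 0.97, and the inactivating Cyp24a1 at 1.66, -0.54 and 1.81. Kl, the co-receptor of the phosphate hormone FGF23, was at 2.06, 2.00 and 1.93. Epo was not above background on any array. Drug metabolism had 11 of 30 in the top 10%, and Cyp4a8 followed Cyp4a2 and Cyp2c23 at 8.06, 8.22 and 8.06. Of antioxidant genes 17 of 32 were there, including Sod1, the cytosolic superoxide dismutase, at a mean of 7.95. Of 3 genes that are often measured in kidney injury, Havcr1, the gene of kidney injury molecule 1, was above background on 2 arrays, Lcn2 was at -2.98, -2.01 and -1.81, and Spp1 at 2.41, 3.31 and 2.78.

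**Figure D5:**
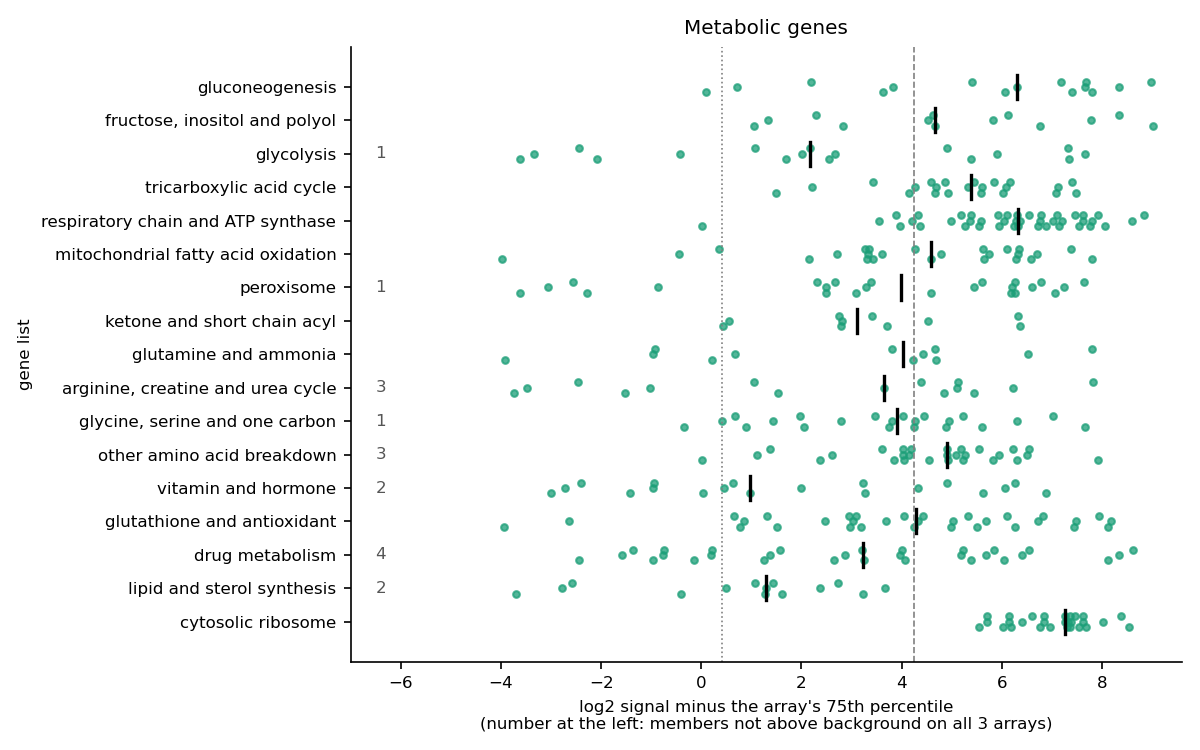
Mean level over 3 water rats (log2 signal minus the array's 75th percentile) of members of each metabolic list above background, with list medians as bars, the dotted line at the median of all genes (0.41) and the dashed line at the start of the top 10% (4.25). Cytosolic ribosome, respiratory chain and gluconeogenesis have medians of 7.26, 6.32 and 6.30, and no lipid and sterol synthesis gene reaches the dashed line.

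Single genes on which 1 rat stood far apart were few. Over all genes above background 371 (3.24%) had an SD above 0.5, and of the 749 list members 34 (4.54%), with the odd rat being rat 1 in 10, rat 2 in 13 and rat 3 in 11. The widest was Hmox1, the stress-induced heme oxygenase, at 5.41, -1.72 and -1.36, a 123-fold excess in rat 1 over the mean of the other 2, read from 1 probe. Ephx2, the epoxide hydrolase that clears epoxyeicosanoids, was at 3.01, 3.10 and -1.38, 21.6-fold lower in rat 3, also from 1 probe.

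For others a further probe gave the same picture. Cyp24a1 was low in rat 2 on both of its probes, the second at -0.40, -2.78 and -0.34. Rbp4, the retinol carrier, was low in rat 1 on both (-0.75, 1.41, 0.69 and -1.24, 0.77, 0.07). The sulfotransferase Sult1b1 was lowest in rat 2 and highest in rat 3 on all 3 probes, the brightest at 3.36, 2.00 and 4.40. Across the 116 genes with an SD above 0.5 and a next probe, that probe set the same rat apart in the same direction in 80 (69.0%), beside 38.6% of all 5862 genes with a next probe.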

How the data were processed

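The 3 arrays of water rats were grouped by the labels. Per the file headers, each scanner file gives every spot's intensity on a linear scale, after background subtraction and detrending in the scanner software, Agilent Feature Extraction 10.7.1.1. The submitters' processing notes name version 10.7. Control spots (1439) and 10 probes with outlier flags were left out. The other 61527 probes were scaled to the 75th percentile of all non-control probes, and 28188 were named through RefSeq accessions in the GRCr8 gene table, whose names alone were used beside its promoters, since the array grid is of an older build. The brightest probe stood for a gene. The authors' deposited table of processed intensity matched the scaled scanner values within 2% for 100% of probes above a small floor. Its medians were 0.1076, 0.1053 and 0.1046.

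The 56 lists hold 828 genes on the array. Members and lists were chosen with earlier results of these data known. Named genes are the 30 brightest, the 4 highest of each list, list members above background on no array, and a fixed set. Amn, Anpep, Ephx2, Hk1, Hk2, Pkm, Rbp4, Slc22a2, Slc38a3, Sult1b1, Uqcrq and the genes named only as not above background on all arrays were added after values were seen. No groups were compared and no test was run. Ranking was tested on simulated data. The alternative background correction (normexp, offset 50, limma 3.58.1 in R 4.3.3) used median spot signals because the files used here give no mean signal. Other steps used Python 3.11.15, pandas 2.3.3 and scipy 1.17.1. Some members of the lists are not reported here by name.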

Additional observations from a re-analysis of the deposited data

Results flagged for a closer look

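Signal also appeared in probes that carry no gene name here. Of 33339 such probes, 17809 were well above background on all 3 water arrays. Of these, 58 were brighter than the gene ranked 30, beside 33 named probes, and 1380 passed the level at which the top 10% of genes begins, beside 1595 named probes. The brightest of them lay at 9.44, 9.52 and 9.38 in rats 1, 2 and 3, and 7 lay above Miox, the first of the named genes. The ranks in the report are thus places among named genes. With 3 arrays, a single far value within the group could not be screened for by the usual gap criterion.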

How the results depend on the processing

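The number of genes above background was 11453 to 12811 under a weaker flag, 2 arrays, outlier spots kept or a rat left out. With the median over a gene's probes, 19 of the 30 brightest stayed, against 28 to 30 under the other settings. All that left under the median had a second probe above background, and genes without one keep their level there. Segment, transport and metabolism counts in the top 10% stayed within 1.5 times. They reached 58, 71 and 224 with no filter on background, where more genes are ranked and the top 10% holds more of them. The counts of single lists are compared in the same way. Those of 50 of 56 lists stayed within 1.5 times with the median over probes, and those of 48 with no filter. The median spread between rats was 0.0815 with normexp and 0.0722 to 0.0811 without a replicate. The median spread between probes was 0.976 against the median probe, 1.78 with normexp and 1.88 over all probes. The TATAAA share was 25.6% in the 100 brightest and 9.40% in the 1000 brightest genes, and 7.42% in the window near the start, which was chosen after seeing the data. The GTTAAT share was 7.03% in the 300 brightest, 11.0% in the 100 brightest and 4.52% in the 1000 brightest. The causes were not tested.

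Under 5 settings chosen after seeing the data, thick limb to collecting duct genes lowest in rat 1 numbered 41 to 46 of 60, podocyte genes 12 to 13 of 14, and proximal genes highest in rat 1 22 to 30 of 55. The 46 and the 22 came with median scaling, where 45.6% of all genes were lowest and 25.1% highest in rat 1. No paired analysis was possible because no groups were compared. Signals near background carry only a bound, and 3 animals limit every spread.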
